A study of Homo sapiens with 6 samples.

Results

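The genes described here are 30 interferon-stimulated genes, read from the RNA-seq counts of Huh7 cells with and without knockdown of CTSV. They were taken by name from a list of 36 such genes, out of 27394 gene names in the deposited table. The rule takes each gene by its name and uses no measured value, but the list was chosen with earlier results of these data known. The other 6 names on the list (OAS2, OASL, IFITM1, IFI44, RSAD2 and XAF1) were not analysed here. Of the 30 genes, 25 passed the low-count filter and were tested.

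Interferons are secreted proteins that warn cells of infection. When a type I or type III interferon binds its receptor, the kinases JAK1 and TYK2 phosphorylate STAT proteins, and STAT2 and IRF9 are subunits of the complex ISGF3 that then forms. ISGF3 binds the interferon-stimulated response element in promoters and switches on a large set of genes that sense viral RNA, block viral entry, translation and replication, or feed back on the pathway. Hepatocytes have receptors for both interferon types, and these genes are best known in liver from hepatitis B and C.

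The 6 libraries came from Huh7, an established human hepatocellular carcinoma line. In 3 the cells carried a control shRNA (titled sh_con, genotype given as WT), and in 3 an shRNA against CTSV (titled sh_ctsv, genotype CTSV knockdown). CTSV encodes the lysosomal protease cathepsin V. Both groups thus carried an shRNA, and the labels name no interferon treatment, no virus and no time point. The labels do not give the number of shRNAs or cell clones, and do not say whether replicates were grown separately. The p-values therefore measure only how far these libraries differ from each other, and that spread may be technical.

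Library totals ran from 16258803 to 18106207 counts. CTSV counts in the deposited table were 755, 740 and 658 with the control shRNA against 304, 264 and 296 with the CTSV shRNA, a log2 fold change of -1.34 (SE 0.0958, adjusted p = 7.2e-14), so the targeted gene matched the labels. Of 8 hepatocyte and hepatoma markers 7 rose, albumin and alpha-fetoprotein among them, and their summed level was 24665 to 25606 CPM in controls and 31341 to 32469 CPM in knockdown libraries. HNF4A, a hepatocyte transcription factor gene among the 7, lost its call without knockdown replicate 2 or with length and GC offsets (adjusted p up to 0.0864). Of 6 leukocyte markers 3 were in the table. Their summed level was 75.2 to 84.2 and 56.4 to 62.1 CPM, most of it from the lysozyme gene LYZ, which fell (log2 fold change -0.42), and the T cell gene CD3E had 0 to 7 counts a library. The part of these shifts in the results below was not tested. In bulk libraries, fewer cells with a transcript and less of it per cell cannot be told apart.

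In knockdown cells, 8 of the 25 tested interferon-stimulated genes rose, 1 fell and 16 did not pass the test. The rises were SAMD9, HERC6, IFI27, IFIT1, IFIH1, DDX58, USP18 and STAT2, from 2.82-fold for HERC6 to 1.42-fold for STAT2. The fall was MX2, to 0.805 of the control level. Other genes often used as interferon markers, ISG15, MX1, OAS3, IFI6, IFITM3 and IRF7, were not called. Of these, MX1, IFI6 and IRF7 had only 5 to 22 counts a library, where changes as large as those called could be missed. A call means an adjusted p under 0.05 in edgeR's quasi-likelihood test, and "rose" and "fell" are kept for called genes.

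**Figure D1:**
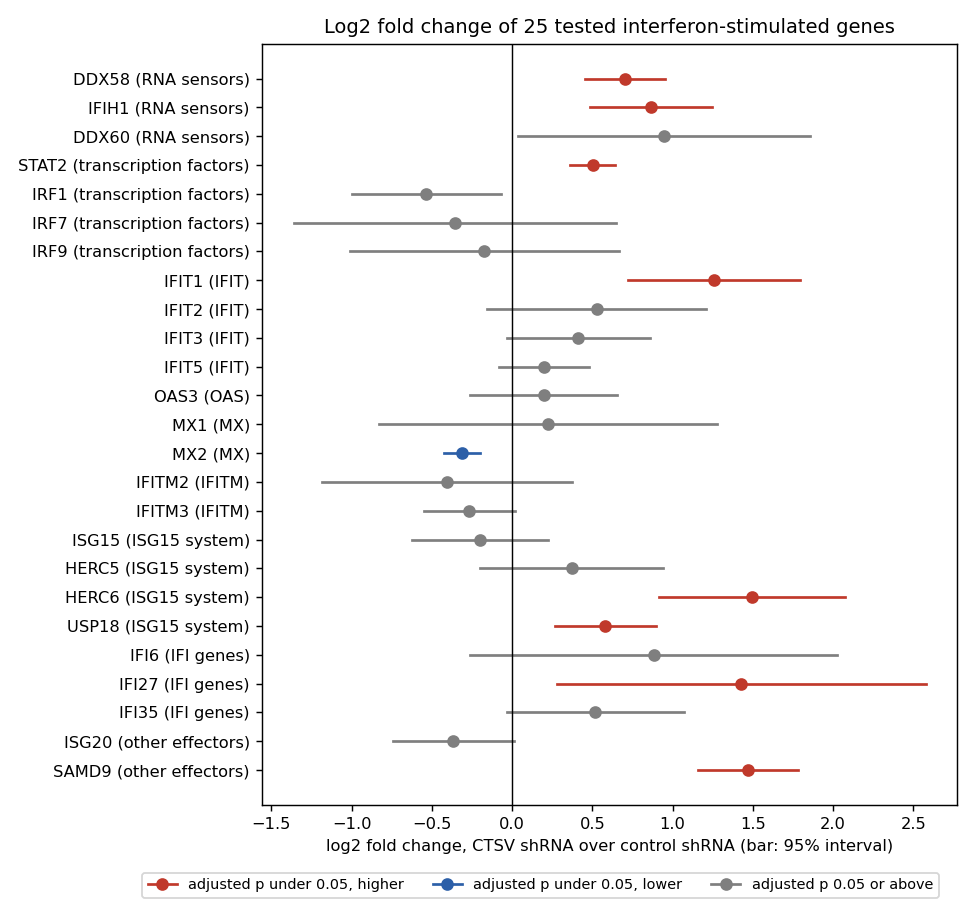
Log2 fold change of each tested interferon-stimulated gene (CTSV shRNA over control shRNA, x axis), by gene and role (y axis), with bars for the 95% interval and colours for the call. The 8 red genes lie between 0.50 and 1.49, MX2 (blue) lies at -0.31, and most grey intervals cross 0.

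Among all 15968 tested genes, 18.7% rose and 21.6% fell, so calls were common in this comparison. Of the members, 32% rose and 4% fell. Their median log2 fold change was 0.41, against 0.02 for all tested genes. Level moved with the change. The 20 tested members below a mean of 10 CPM (counts scaled to library size, TMM-normalised) included 6 that rose and 0 that fell, at a median of 0.47. All tested genes below that level had a median of 0.26, and 17.1% of them rose while 4.58% fell. The 5 members at or above it (DDX58, STAT2, IFIT5, MX2 and IFITM3) included 2 that rose and 1 that fell, at a median of 0.20, where 19.7% of all tested genes rose and 33.4% fell. Groups did not overlap for 11 of the 25, 10 of them higher in knockdown libraries, while 24.1% of all tested genes were higher and 25.0% lower without overlap. With a limit of 1.5-fold added, 6 members rose and 0 fell, where 8.66% of all tested genes rose and 3.89% fell. No test compared the members with other genes, and the members were chosen with earlier results of these data known.

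**Figure D2:**
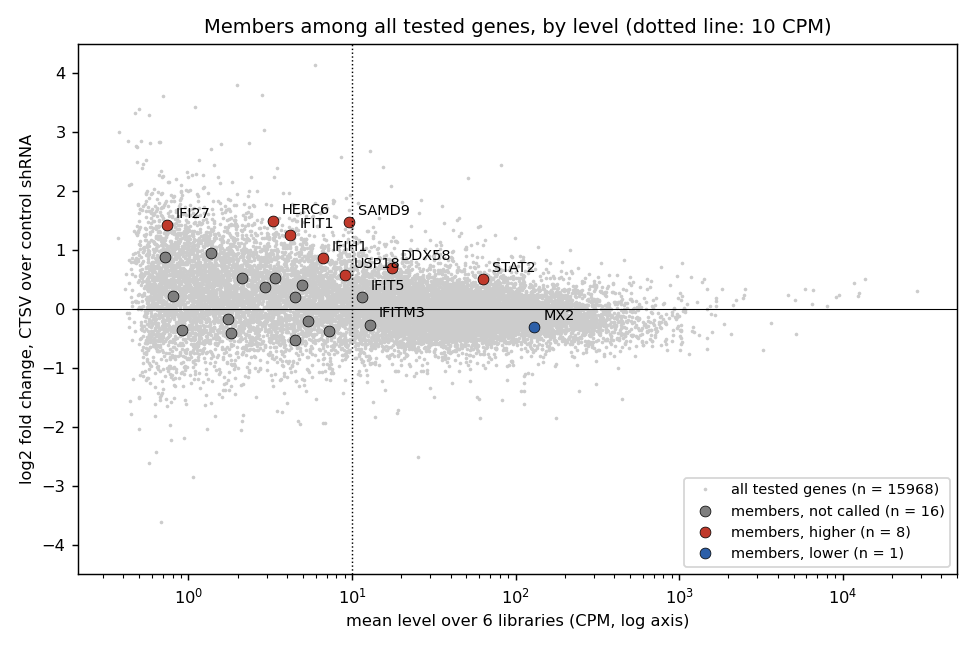
Mean level over the 6 libraries (x axis, CPM, log scale) against log2 fold change (y axis) for all 15968 tested genes in grey and the 25 members in colour, with a dotted line at 10 CPM. The members that rose span the level range from IFI27 to STAT2, 6 of them left of the line, and MX2 has the highest CPM of the members.

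The response element that ISGF3 reads is a repeat of GAAA cores, and its match was searched for in promoter windows of RefSeq (GRCh38.p14), from 250 bases before to 50 bases after each gene start. The pattern was GAAANNGAAA on either strand. An entry was found for 25 of the 30 members, and 16 of these (64%) held a match, against 4.38% of 27305 genes in the promoter table. USP18, which rose, MX2, which fell, and IFIT2, IFITM2 and IRF7 had no entry and were not searched. By call, a match was found in 4 of 7 members that rose (IFIH1, IFIT1, IFI27 and SAMD9), in 10 of 13 that were not called and in 2 of 5 that were not tested. DDX58 (RIGI in RefSeq), STAT2 and HERC6 rose without these letters in the window. A second pattern, TTCNNNGAA, the core of the interferon gamma-activated site, was in 8 of the 25 members and in 9.38% of all genes. The sequences printed next set 2 genes that rose, SAMD9 and IFIT1, beside 4 that carry the same kind of match and were not called. Each is printed 5′ to 3′ on the gene's own strand, with the match in capitals and 20 bases on either side. Where a gene has several matches, the one shown is the nearest to its start whose whole window lies outside annotated exons. Another IFIT1 match, nearer the gene start, stays in lower case in the printed flank. A further ISG15 match, which begins 113 bases before the gene start, overlaps the one shown and is partly in lower case. Exons are those of GENCODE v29, and no window overlaps one.
SAMD9: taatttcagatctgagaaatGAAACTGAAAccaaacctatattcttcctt
IFIT1: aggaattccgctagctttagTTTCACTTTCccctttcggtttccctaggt
DDX60: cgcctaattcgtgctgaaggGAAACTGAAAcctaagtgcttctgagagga
ISG15: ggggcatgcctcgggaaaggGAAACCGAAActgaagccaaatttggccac
HERC5: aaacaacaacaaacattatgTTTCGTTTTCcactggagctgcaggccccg
IFI6: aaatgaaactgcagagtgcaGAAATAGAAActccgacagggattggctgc

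The windows lie at chr7:93118086-93118135 (minus strand) for SAMD9, chr10:89392487-89392536 (plus) for IFIT1, chr4:168318811-168318860 (minus) for DDX60, chr1:1013370-1013419 (plus) for ISG15, chr4:88457025-88457074 (plus) for HERC5 and chr1:27672256-27672305 (minus) for IFI6. The match began 136 bases before the gene start in SAMD9 and 116 in IFIT1, against 88 in DDX60, 107 in ISG15, 74 in HERC5 and 93 in IFI6. SAMD9 and DDX60 hold the same 10 letters. A match in a window is a description of sequence and not of binding.

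DDX58 and IFIH1, which encode cytoplasmic sensors of viral double-stranded RNA, rose. DDX58 encodes RIG-I, which detects RNA with a 5′ triphosphate, and lies on chromosome 9 from 32455705 to 32526324 (hg38, minus strand). Its counts were 263, 219 and 192 in controls and 382, 300 and 430 in knockdown libraries, that is 13.3 ± 1.40 and 21.6 ± 3.02 CPM (SD, n = 3 each). The groups did not overlap, and the log2 fold change was 0.70 (SE 0.123, adjusted p = 1.62e-05). IFIH1 encodes MDA5, the sensor of long double-stranded RNA, on chromosome 2 from 162267079 to 162318703 (minus strand). It had 84, 63 and 89 counts against 130, 148 and 159, from 4.68 ± 0.877 to 8.53 ± 0.584 CPM (n = 3 each). Each knockdown library was again above each control library (log2 fold change 0.87, SE 0.187, adjusted p = 0.000283). DDX60, a helicase described as a cofactor of RIG-I, had 28, 11 and 9 counts in controls and 21, 41 and 31 in knockdown libraries. Control replicate 1 lay inside the knockdown range, and the log2 fold change of 0.95 was not called (adjusted p = 0.0912). Without that library it was 1.56 and was called (adjusted p = 0.0244).

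Of the 4 transcription factor genes, STAT2 alone was called. STAT2, the ISGF3 subunit that supplies the activation domain, lies on chromosome 12 from 56341597 to 56360155 (minus strand). It had 927, 899 and 818 counts in controls and 1219, 1297 and 1278 in knockdown libraries. The level went from 52.3 ± 1.60 to 74.2 ± 4.16 CPM (n = 3 each), with no overlap and a log2 fold change of 0.50 (SE 0.0687, adjusted p = 2.13e-07). IRF9, the DNA-binding subunit of the same complex, had 47, 32 and 15 counts against 41, 23 and 19, a spread of about the same width in both groups. Its log2 fold change of -0.17 was not called (interval -1.01 to 0.66), and it was 0.18 without control replicate 1 and 0.07 without knockdown replicate 3. The IRF9 counts are uncertain. All 50-base stretches of its longest coding transcript also occur in transcripts of AL136295.5, a protein-coding gene annotated over it on the same strand, and how shared reads were counted is not stated in the labels or files.

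IRF1, the activator that binds the same promoter elements after interferon gamma, pointed the other way. It had 100, 102 and 68 counts in controls and 61, 70 and 57 in knockdown libraries. Control replicate 3 was level with knockdown replicate 2, the highest of its group, and the log2 fold change of -0.53 was not called (adjusted p = 0.0598). It was -0.68 without control replicate 3 (adjusted p = 0.0257) and -0.59 with length and GC offsets (adjusted p = 0.0328), both called. With those offsets more of all tested genes were called lower (4738 against 3451). Of its 50-base stretches 15.2% are shared with other genes, chiefly C5orf56 on the opposite strand. IRF7, the amplifier of interferon production, had 11 to 20 counts in all 6 libraries and a log2 fold change of -0.35 with an interval from -1.36 to 0.65.

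**Figure D3:**
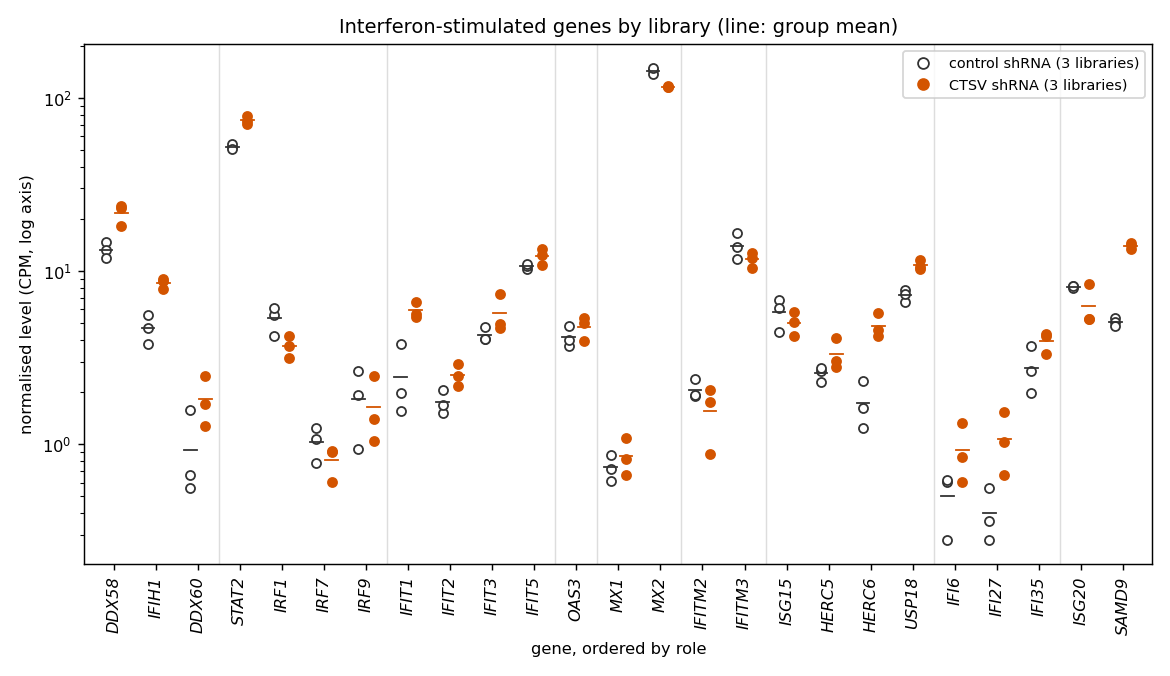
Normalised level of the 25 tested members in each library (y axis, CPM, log scale), with genes on the x axis ordered by role, open circles for control shRNA, filled circles for CTSV shRNA and lines for group means. All knockdown libraries lie above all controls for the 8 members that rose, SAMD9 and HERC6 among them, and MX2 stands at the top of the range with knockdown libraries below controls.

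The 4 IFIT genes, which bind foreign RNA and hold up its translation, lie in 1 cluster on chromosome 10 and all had positive log2 fold changes, of which IFIT1 passed the test. IFIT1, whose protein grips RNA that lacks a methylated cap, lies from 89392546 to 89406486 on the plus strand. Its counts were 68, 33 and 25 in controls and 94, 110 and 99 in knockdown libraries, or 2.45 ± 1.20 and 5.93 ± 0.646 CPM (n = 3 each). The groups did not overlap, although control replicate 1 stood above the other controls, and the log2 fold change was 1.26 (SE 0.264, adjusted p = 0.000187). It was 1.73 without that library. IFIT3, the partner that stabilises IFIT1, had 72, 67 and 76 counts against 78, 122 and 90, a log2 fold change of 0.41 (adjusted p = 0.136). IFIT2 had 27, 34 and 27 counts against 48, 36 and 45, with no overlap and a log2 fold change of 0.53 that was not called (adjusted p = 0.219). IFIT2 shares 65 exon bases with LIPA on the opposite strand, so its reads may be mixed if strand was not used. IFIT5, the family member with the highest counts, had 183, 177 and 177 counts against 179, 221 and 226. Its log2 fold change was 0.20 with an interval from -0.08 to 0.48.

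The OAS enzymes make the second messenger that activates RNase L, and neither family member in the table was called. OAS3 had 66, 66 and 77 counts in controls and 88, 65 and 91 in knockdown libraries, overlapping groups with a log2 fold change of 0.20 (interval -0.26 to 0.66). OAS1 had 1 to 8 counts in every library and was not tested. The MX genes encode dynamin-like GTPases, MX1 against influenza and other RNA viruses and MX2 against HIV. They lie 10913 bases apart on chromosome 21. MX2, from 41361943 to 41409390 on the plus strand, had 2579, 2278 and 2400 counts in controls and 1899, 1920 and 2108 in knockdown libraries. It went from 144 ± 6.26 to 116 ± 0.765 CPM (n = 3 each), with all knockdown libraries below all controls and a log2 fold change of -0.31 (SE 0.0540, adjusted p = 1.25e-05). MX1 had only 11 to 18 counts a library and a log2 fold change of 0.22 (interval -0.83 to 1.28).

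MX2 also had the highest counts of the members. It took 46.6% to 50% of the summed CPM of the 30 members in controls and 34.7% to 36.3% in knockdown libraries. The sum over all members was 294 to 301 CPM in controls and 319 to 335 CPM in knockdown libraries. Without MX2 and STAT2 it was 98.6 to 104 and 133 to 140 CPM. Per kilobase of annotated exon, MX2 stood at 11.0 CPM in controls, IFITM3 at 10.4, STAT2 at 8.57, ISG15 at 6.14, USP18 at 3.40 and DDX58 at 3.05. IFITM3 and MX2 were nearer to each other than the spread of IFITM3, whose control counts ran from 188 to 274. The length used merges all annotated exons of a gene, 13.0 kb for MX2 and 1.35 kb for IFITM3. Another choice of length could change this order. SAMD9 stood at 0.738 CPM per kilobase in controls and 2.05 in knockdown libraries, so that its level stayed below those of MX2 and STAT2 in both groups.

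The IFITM proteins sit in endosomal and plasma membranes and hinder the fusion of enveloped viruses. IFITM3, on chromosome 11 from 319669 to 327537 (minus strand), had 247, 274 and 188 counts in controls and 210, 197 and 189 in knockdown libraries. The groups overlapped through control replicate 3, and the log2 fold change of -0.27 was not called (adjusted p = 0.132). It was -0.38 and called without control replicate 3 (adjusted p = 0.0419), and -0.33 and called with length and GC offsets (adjusted p = 0.0473). These offsets called more of all tested genes lower (4738 against 3451). IFITM2 had 34, 32 and 38 counts against 34, 29 and 16, a log2 fold change of -0.41 (interval -1.18 to 0.37). The genes of this family are close copies. In IFITM3 20.3% and in IFITM2 15.8% of 50-base stretches occur in other genes too, so counts could be split between them.

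ISG15 is a ubiquitin-like protein that is joined to target proteins, by HERC5 among others, and removed by USP18. The modifier itself did not change detectably, with 121, 102 and 71 counts in controls and 84, 70 and 105 in knockdown libraries and a log2 fold change of -0.20 (interval -0.63 to 0.22). HERC6, the HERC5 relative next to it on chromosome 4 (88378739 to 88443111, plus strand), had 22, 27 and 37 counts against 76, 94 and 77. The level went from 1.72 ± 0.542 to 4.84 ± 0.760 CPM (n = 3 each), with a wide gap between the groups and a log2 fold change of 1.49 (SE 0.285, adjusted p = 5.29e-05). HERC5 had 41, 44 and 44 counts against 50, 68 and 51. Its groups did not overlap, and its log2 fold change of 0.37 was not called (adjusted p = 0.312). USP18, the ISG15 protease that also blocks the type I receptor subunit IFNAR2, lies on chromosome 22 from 18149899 to 18177397 (plus strand). It had 118, 129 and 118 counts against 170, 174 and 211, from 7.24 ± 0.581 to 10.8 ± 0.702 CPM (n = 3 each). The groups were apart, with a log2 fold change of 0.58 (SE 0.155, adjusted p = 0.00277). Of the USP18 stretches 23.4% are shared, chiefly with its near-copy USP41, which makes its count less certain. UBA7, the enzyme that activates ISG15 for transfer and a gene named here after its values were seen, rose as well (log2 fold change 1.05, adjusted p = 0.000121).

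The IFI genes of the list had low counts. IFI27, a small mitochondrial membrane protein gene on chromosome 14 (94104836 to 94116698, plus strand), had 5, 6 and 9 counts in controls and 17, 11 and 28 in knockdown libraries. The groups did not overlap, and the log2 fold change of 1.43 (SE 0.567) passed narrowly (adjusted p = 0.0421). The call was lost in the fits without control replicate 1 (1.22, adjusted p = 0.153) or 2 (1.36, 0.114) and without knockdown replicate 1 (1.46, 0.0878) or 3 (1.08, 0.257). It was also lost without a low-count filter (adjusted p = 0.082), with the replicate block (0.0607) and in DESeq2 (0.104). IFI35, a partner of the signalling protein NMI, had 47, 33 and 59 counts against 55, 71 and 77. Its log2 fold change of 0.52 was not called (adjusted p = 0.129), but reached 0.77 and was called without control replicate 3 (adjusted p = 0.0452). IFI6 had 5 to 10 counts in controls and 11 to 22 in knockdown libraries (log2 fold change 0.88, adjusted p = 0.22).

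SAMD9 had the smallest adjusted p of all members. It encodes an antiviral protein that stops translation in poxvirus infection and restrains cell growth, and lies on chromosome 7 from 93099513 to 93118023 (minus strand). Its counts were 95, 84 and 77 in controls and 222, 234 and 264 in knockdown libraries, or 5.06 ± 0.265 and 14.0 ± 0.560 CPM (n = 3 each). The lowest knockdown library was at 13.4 and the highest control at 5.33 CPM, and the log2 fold change was 1.47 (SE 0.155, adjusted p = 8.79e-10). SAMD9L, its paralog 12031 bases away, had only 3, 0 and 2 counts against 0, 14 and 5 and was not tested. ISG20, an RNA exonuclease, had 146, 133 and 132 counts in controls and 87, 139 and 96 in knockdown libraries. Knockdown replicate 2, at 8.42 CPM, stood above the highest control at 8.22 CPM, and the log2 fold change of -0.37 was not called (adjusted p = 0.117). Without that library it was -0.63 and was called (adjusted p = 0.0147).

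Besides OAS1 and SAMD9L, 3 more members were under the low-count filter. IFI44L, a feedback regulator of the interferon response, had 3, 2 and 4 counts in controls and 38, 14 and 3 in knockdown libraries. Knockdown replicate 1 held most of the reads, and replicate 3 was level with the controls. In the authors' deposited table its log2 fold change, turned to knockdown over control, is 2.61 with an adjusted p of 0.0201. Without a filter the edgeR value was 2.55 (SE 0.722, adjusted p = 0.00266). It passed the filter and was called without any 1 control library or without knockdown replicate 3, and failed the filter without knockdown replicate 1 or 2. CMPK2, a mitochondrial nucleotide kinase gene, had 3, 1 and 0 counts against 4, 7 and 0. BST2, whose protein tethers budding virus to the cell, had 2 counts in control replicate 2, 2 in knockdown replicate 3 and 0 in the other libraries. For CMPK2 and BST2 a difference was not detectable at this depth.

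Genes upstream of these were taken from lists of ligands, receptors and signalling proteins, and values in parentheses are log2 fold changes. Of 16 interferon ligand genes listed, only IFNA5 was in the table, with 3 counts in knockdown replicate 2 and 0 elsewhere. All 9 listed genes for receptors and kinases were tested, and 2 rose and 3 fell, with a median of -0.14. The kinase gene TYK2 rose (0.34, adjusted p = 9.2e-05) and the type I receptor subunit gene IFNAR1 fell (-0.26, adjusted p = 0.00126), both also called in 12 of 12 alternative fits. IFNLR1, the type III receptor subunit that gives hepatocytes their response to interferon lambda, had 60, 45 and 39 counts against 72, 80 and 103 and rose by 0.80 on the log2 scale (adjusted p = 0.00812), a call lost without knockdown replicate 3 (adjusted p = 0.0557). The interferon gamma receptor subunit IFNGR1 fell (-0.22), a call lost without knockdown replicate 2 (adjusted p = 0.0877). The kinase gene JAK1 fell by a small amount (-0.14), a call lost without control replicate 1 or 3 or knockdown replicate 1 or 2, with adjusted p up to 0.152. IFNAR2 (-0.23), IL10RB (-0.27), JAK2 (0.09) and IFNGR2 (-0.01) were not called.

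Among 11 tested genes that carry the signal from sensors to interferon production, 2 rose and 3 fell, with a median of -0.19. MAVS, the mitochondrial adaptor that RIG-I and MDA5 both use, had 4574, 4099 and 4256 counts in controls and 3446, 3264 and 3781 in knockdown libraries, without overlap (log2 fold change -0.32, adjusted p = 1.26e-06). The counts of both sensors were higher and those of their shared adaptor lower in the same libraries. MAVS had a mean of 230 CPM, and of all tested genes at 10 CPM or more 33.4% fell. TRAF3, the ubiquitin ligase that acts after MAVS, fell by more (-0.53, adjusted p = 5.08e-07), and the adaptor gene MYD88 fell slightly (-0.28, adjusted p = 0.0212). The transcription factor gene IRF3 (0.21, adjusted p = 0.0214) and the ligase gene TRAF6 (0.41, adjusted p = 0.0306) rose. MAVS and TRAF3 kept their calls in 12 of 12 alternative fits. MYD88 lost its call without control replicate 3 or knockdown replicate 1 or 3 (adjusted p up to 0.0893). IRF3 lost its call in DESeq2 and without replicate 1 of either group (up to 0.205). TRAF6 lost its call in DESeq2, with length and GC offsets, and without control replicate 1 or 3 or knockdown replicate 2 or 3 (up to 0.261). Of 14 negative regulators 2 rose and 3 fell, with a median of -0.05. The phosphatase gene PTPN11 (-0.41, adjusted p = 6e-09) and the SUMO ligase gene PIAS4 (-0.50, adjusted p = 0.000144) fell and kept their calls in 12 of 12 alternative fits. TNFAIP3, the inhibitor A20, fell (-0.41, adjusted p = 0.0071), a call lost without control replicate 2 or knockdown replicate 1 (up to 0.0643). OTUD5 (0.17) and PIAS1 (0.18) rose by small amounts. OTUD5 lost its call in DESeq2 and without control replicate 1 or 3 or knockdown replicate 2 (adjusted p up to 0.157). PIAS1 lost its call in fits that left out replicate 1 of either group or knockdown replicate 3, without a low-count filter, and with length and GC offsets, where its log2 fold change was 0.03 (adjusted p = 0.702). The feedback inhibitors SOCS1 and SOCS3 had 7 to 23 counts a library and were not called.

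A further list of 52 interferon-induced genes outside the 36 had 45 in the table and 37 tested. Of these 8 rose (21.6%), 5 fell (13.5%) and 24 were not called, with a median of 0.13. Over the 71 tested genes of all these lists, the members apart, 14 rose and 14 fell (19.7% each), near the 18.7% and 21.6% of all tested genes. The death ligand gene TNFSF10 (TRAIL) had 63, 47 and 58 counts in controls and 221, 176 and 215 in knockdown libraries, and its log2 fold change was 1.84 (SE 0.182, adjusted p = 2.15e-10). The guanylate-binding GTPase gene GBP1 rose by 1.66 on the log2 scale, from 75, 45 and 40 counts to 168, 161 and 181 (adjusted p = 1.78e-08). The ADP-ribosyltransferase genes PARP14 (0.65, adjusted p = 5.69e-10) and PARP9 (0.60, adjusted p = 1.06e-06) rose from higher levels, 60.4 ± 4.29 and 26.5 ± 2.11 CPM in controls (n = 3 each). In the other direction, the mitochondrial RNA-processing gene PNPT1 (-0.28, adjusted p = 0.000336) and the apolipoprotein L gene APOL6 (-0.53, adjusted p = 0.000462) fell. These 6 calls were kept in 12 of 12 alternative fits. The RNA-editing enzyme gene ADAR (-0.14, adjusted p = 0.0118) and STAT3 (-0.17, adjusted p = 0.0219) fell by less, and both lost the call without control replicate 3 or knockdown replicate 1 (adjusted p up to 0.0745 and 0.119). The kinase gene EIF2AK2, which encodes PKR, stayed within its spread at 77.7 ± 1.67 and 79.2 ± 5.87 CPM (n = 3 each). The chemokine genes CXCL10, with 6 to 16 counts a library, and CXCL11, with 3 counts in knockdown replicates 1 and 3 and 0 elsewhere, were barely detected.

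**Figure D4:**
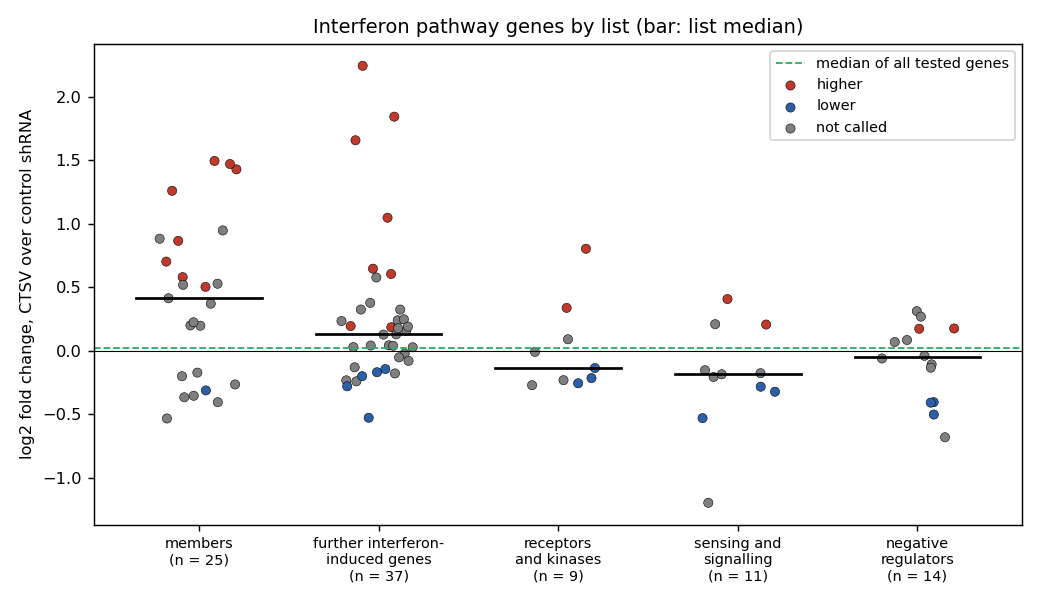
Log2 fold change (y axis) of each tested gene in 5 lists (x axis), coloured by call, with a bar at the list median and a dashed line at the median of all tested genes. The members' median is 0.41, the further interferon-induced genes' 0.13, and the lists of receptors and kinases, signalling genes and negative regulators lie at -0.14, -0.19 and -0.05.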

How the data were processed

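The authors sequenced 6 mRNA libraries of Huh7 cells. The deposited values are raw whole-number counts per gene. The submitters' processing notes name HISAT2, StringTie, SAMtools and hg38. For the counting tool, its strand setting and its treatment of shared reads, nothing was stated in the labels, notes or file headers. The authors' deposited log2 fold changes (control over knockdown) and p-values were used only where named.

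Repeated names hold identical values, so 1 entry per name was kept (1521 of 28915 entries removed). edgeR 4.0.16 in R 4.3.3 was run on all 6 libraries (TMM, filterByExpr, quasi-likelihood test, no covariate, Benjamini-Hochberg over 15968 genes), with an adjusted p under 0.05 as a call. The biological coefficient of variation was 6.87%. The method was tested on simulated data. Intervals are log2 fold change ± the 95% t quantile times SE. Exon lengths and 50-base shared stretches came from GENCODE v29. Counts, not molecules, set the precision.

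Per-library values are printed for called members, members whose call changes when 1 library is left out, and members at 10 CPM or more. From other lists, up to 4 called genes each way were named by adjusted p. Alternatives were RLE, no filter, a mean CPM of 1, the replicate block, DESeq2 1.42.0, loess offsets (span 0.5) for length and GC, a 1.5-fold limit, and leaving out each library. Members and lists were chosen with earlier results of these data known. A pathway gene is not reported here and was left out of its list.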

Additional observations from a re-analysis of the deposited data

How the results depend on the processing

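DDX58, IFIH1, STAT2, IFIT1, HERC6, USP18, SAMD9 and MX2 kept their calls in all 12 alternative fits. IFI27 did not. With a 1.5-fold limit, which STAT2, USP18 and MX2 missed, 6 members were called higher and 0 lower, and so were 7 and 0 genes of the pathway lists and 1383 and 621 of all tested genes (2982 and 3451 without the limit). DESeq2 called 9 pathway-list genes higher, against 14, and 2335 of all tested genes higher, against 2982. Length and GC offsets called 3 members lower (IRF1, MX2 and IFITM3), against 1, and 21 pathway-list genes lower, against 14. Over all tested genes these offsets called 4738 lower, against 3451, and 2277 higher, against 2982. Leaving out 1 library gave 1 to 3 members lower, 7 to 10 higher, and 9 to 16 pathway-list genes lower against 14. Of all tested genes, these fits called 2445 to 2720 higher and 3041 to 3202 lower. The highest member count, 10, and the lowest pathway count, 9, came without control replicate 3. IRF9 ranged from -0.60 to 0.18 over these fits, positive without control replicate 1 (0.18) or knockdown replicate 3 (0.07). The causes were not tested. Deviations of same-numbered libraries from their group means had correlations of -0.02, 0.01 and 0.04. With 3 libraries a group, these values cannot decide whether the numbers pair them. The replicate block called 7 members higher and 1 lower, and 2996 and 3490 of all tested genes. CTSV ranged from -1.44 to -1.30. Counts under about 30 in most or all libraries limit IFI27, IFI6, IRF7, MX1, DDX60, IFI44L, OAS1, SAMD9L, CMPK2 and BST2.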

Other observations

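Levels of related genes were set against each other within each library, for 3 pairs picked after their values were seen and therefore given without a test. HERC6 over its neighbour HERC5 was 0.537, 0.614 and 0.841 against 1.52, 1.38 and 1.51. The groups did not overlap. IFIT1 over IFIT3 was 0.944, 0.493 and 0.329 against 1.21, 0.902 and 1.10, where control replicate 1 lay inside the knockdown range. MX2 over MX1 was 234, 190 and 171 against 106, 175 and 141, also overlapping, with MX1 at 11 to 18 counts. The guanylate-binding gene GBP3, likewise noticed afterwards, had 14, 16 and 12 counts in controls and 71, 62 and 70 in knockdown libraries, a log2 fold change of 2.24 (SE 0.338, adjusted p = 1.32e-06).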
